A study of Canis lupus familiaris with 29 samples.

Results

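The collagens, laminins and other basement membrane genes were followed by RNA sequencing in MDCKII cells, an established epithelial line from dog kidney, during growth as cysts and as sheets. The set was defined by name: every collagen chain and every laminin chain in the deposited tables, with the nidogen genes NID1 and NID2, the perlecan gene HSPG2 and the agrin gene AGRN. It holds 59 of the 24223 genes in the files, of which 43 are collagens and 12 are laminins. A filter of at least 1 FPKM in at least 2 libraries (FPKM, fragments mapped per length of transcript and per total of mapped fragments) left 21 of the 59 among the 11774 genes tested: 12 collagens, 7 laminins, HSPG2 and AGRN. COL12A1, COL27A1 and COL28A1 passed it through 3, 2 and 6 libraries, those in which they were high, so their inclusion depended on the groups that are compared below. The same holds for COL11A2, COL21A1 and COL9A2, which passed it through 13, 16 and 15 libraries. COL11A2 and COL21A1 did not reach 1 FPKM in any library at day 0 or 24 h. COL9A2 did not reach it in any wild-type library on gel from day 3 on or on inserts.

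Basement membranes are thin sheets of matrix on which epithelia rest. Laminins, trimers of an alpha, a beta and a gamma chain, assemble at the cell surface, and type IV collagen forms a separate covalent network. Nidogen, perlecan and agrin link these networks to each other and to receptors such as integrins and dystroglycan. MDCK cells are widely used to study how a single cell on a matrix gel builds a hollow polarised cyst. Matrigel, the gel used here, is itself an extract of a mouse tumour basement membrane and is rich in laminin and type IV collagen.

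The knockdown libraries came from DENND5A-KD cells at day 0 (n = 2), on inserts at day 4 (n = 2) and at day 7 (n = 2), and from AVL9-KD cells at day 0 (n = 2) and on inserts at day 4 (n = 2). Wild-type cells were grown on top of matrigel (3D) for 24 h, 3, 5 and 8 days (n = 2 each) and for 14 days (n = 1), or as 2D sheets on transwell inserts for 4 and 11 days (n = 3 each), and cells taken at seeding served as day 0 (n = 4). The labels do not say whether the numbers of the knockdown libraries mark clones, hairpins or guides, and no control line handled like the knockdowns was analysed here. Nor do they state that the replicates were independent cultures. The p-values therefore reflect how far these libraries scatter, which may be technical scatter.

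Summed FPKM per library lay between 276017 and 441332, and 10163 to 10903 genes reached 1 FPKM. Depth, read from the steps between low values, ran from 0.448 to 1.67 times that of day 0 replicate 2. DENND5A averaged 1.95 FPKM in its knockdown at day 0 and 5.62 FPKM in wild-type cells, and AVL9 averaged 6.46 FPKM in its knockdown and 23.0 FPKM in wild-type cells. All 8 epithelial markers found in the files reached 1 FPKM in some library, but 7 did at day 0 (wild type and both knockdowns) and at 24 h. The 9 fibroblast markers summed to at most 1.78 FPKM in any library, and the 8 leukocyte markers to at most 1.52 FPKM. The 8 endothelial markers summed to between 1.83 and 29.04 FPKM and were lowest at day 0 and 24 h, but EGFL7 alone of them reached 1 FPKM, and the defining markers PECAM1 and CDH5 stayed below it. The part of that sum in the changes against day 0 was not tested. Among wild-type libraries, the day 14 library and replicate 1 of 4 other groups (2D day 4, day 0, 3D day 8 and 3D day 3) stood apart from the other 24, with TIMM13 listed at 0 (30.9 to 397 FPKM elsewhere) and RPS27L at 11.6 to 22.3 FPKM (0 to 1.37 FPKM elsewhere). Within these libraries alone and within the others alone, the members called from all libraries kept their sign in 14 of 14 cases for 3D day 3, 14 of 15 for 3D day 8 and 15 of 15 for 2D day 4 against day 0, and in 18 of 18 between gel and insert. The exception was LAMC1 at 3D day 8. These members had been called from the same libraries, so agreement in sign was likely beforehand and is no independent check. The libraries apart number 1 per group, and their gel against insert difference covers only 3D days 3 and 8 against 2D day 4. In bulk RNA, fewer cells of a type and less RNA per cell cannot be told apart.

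A narrow part of the family was well expressed in MDCKII cells. A group mean of at least 10 FPKM was reached by 15 of the 59 members, among them COL4A1 and COL4A2 of the 6 type IV chains, the laminin chains LAMA3, LAMA5, LAMB1, LAMB2, LAMB3 and LAMC1, both proteoglycans AGRN and HSPG2, and the collagens COL5A1, COL5A2, COL17A1 and COL18A1. Of the 38 members not tested, 11 were listed at 0 in all 29 libraries, among them the type IV chains COL4A3, COL4A4 and COL4A6 and the nidogen gene NID1. The other nidogen gene, NID2, reached at most 0.236 FPKM. COL7A1, which forms the anchoring fibrils under epithelia, was the highest member not tested, at 1.08 FPKM in a 3D day 8 library. The interstitial chains COL1A1, COL1A2 and COL3A1 did not exceed 0.151, 0.132 and 0.1596 FPKM.

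Together the 59 members summed to 686 ± 41.0 FPKM at day 0 (SD, n = 4). On matrigel the sum was 579 ± 28.3 FPKM at 24 h, 523 ± 27.8 FPKM at day 3, 591 ± 75.0 FPKM at day 5 and 557 ± 134 FPKM at day 8 (SD, n = 2 each), and 683 FPKM in the single day 14 library. On inserts it was 1181 ± 63.5 FPKM at day 4 and 1120 ± 30.1 FPKM at day 11 (SD, n = 3 each). No gel library overlapped with an insert library in this sum.

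The type IV collagen chains COL4A1 and COL4A2, which form the network of most basement membranes and are encoded side by side in the genome, moved together and had the largest differences between gel and insert among the 21 members tested. COL4A1 was at 2.80, 7.70, 2.96 and 10.3 FPKM at day 0. On gel it was at 4.26 and 1.55 FPKM at 24 h, 0.617 and 0.679 FPKM at day 3, 3.56 and 5.56 FPKM at day 5, 11.1 and 6.74 FPKM at day 8 and 15.1 FPKM at day 14. On inserts it was at 35.0, 20.9 and 44.5 FPKM at day 4 and 46.2, 52.6 and 39.0 FPKM at day 11. The day 3 libraries were the lowest of all 29, and all insert libraries were above all gel libraries. COL4A2 followed the same course, at 0.397 and 0.551 FPKM on gel at day 3, 6.02 and 3.46 FPKM at day 8, and 24.7, 27.9 and 23.9 FPKM on inserts at day 11.

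Changes are given as differences of log2(FPKM + 1), with standard errors from limma fitted to all genes and all 13 groups and Benjamini-Hochberg adjusted p-values over the 11774 genes. This scale understates the changes of genes with low values. Against day 0, COL4A1 fell by 1.91 ± 0.40 on gel at day 3 (limma adjusted p = 0.00055) and rose by 2.41 ± 0.35 on inserts at day 4 (adjusted p = 7.45e-06) and by 2.91 ± 0.35 at day 11 (adjusted p = 1.13e-06). These comparisons share the 4 day 0 libraries. At 3D day 8 its difference from day 0 was 0.64 ± 0.40 (adjusted p = 0.17), while against 3D day 3 it had risen by 2.56 ± 0.46 (adjusted p = 0.00171). COL4A2 rose by 1.93 ± 0.47 over the same interval (adjusted p = 0.01), a call lost without either day 3 library or without day 8 replicate 1. Taking 3D days 3, 5 and 8 against 2D days 4 and 11, COL4A1 was lower by 3.14 ± 0.27 and COL4A2 by 3.02 ± 0.27 (log2 differences -3.14 and -3.02, limma adjusted p = 1.54e-08 and 3.05e-08). The ratio of COL4A1 to COL4A2 FPKM stayed between 1.01 and 1.95 over all 29 libraries, while the group means of COL4A1 differed by up to 70.9 times. The lowest of these means, 0.648 FPKM on gel at day 3, was below 1 FPKM.

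**Figure D1:**
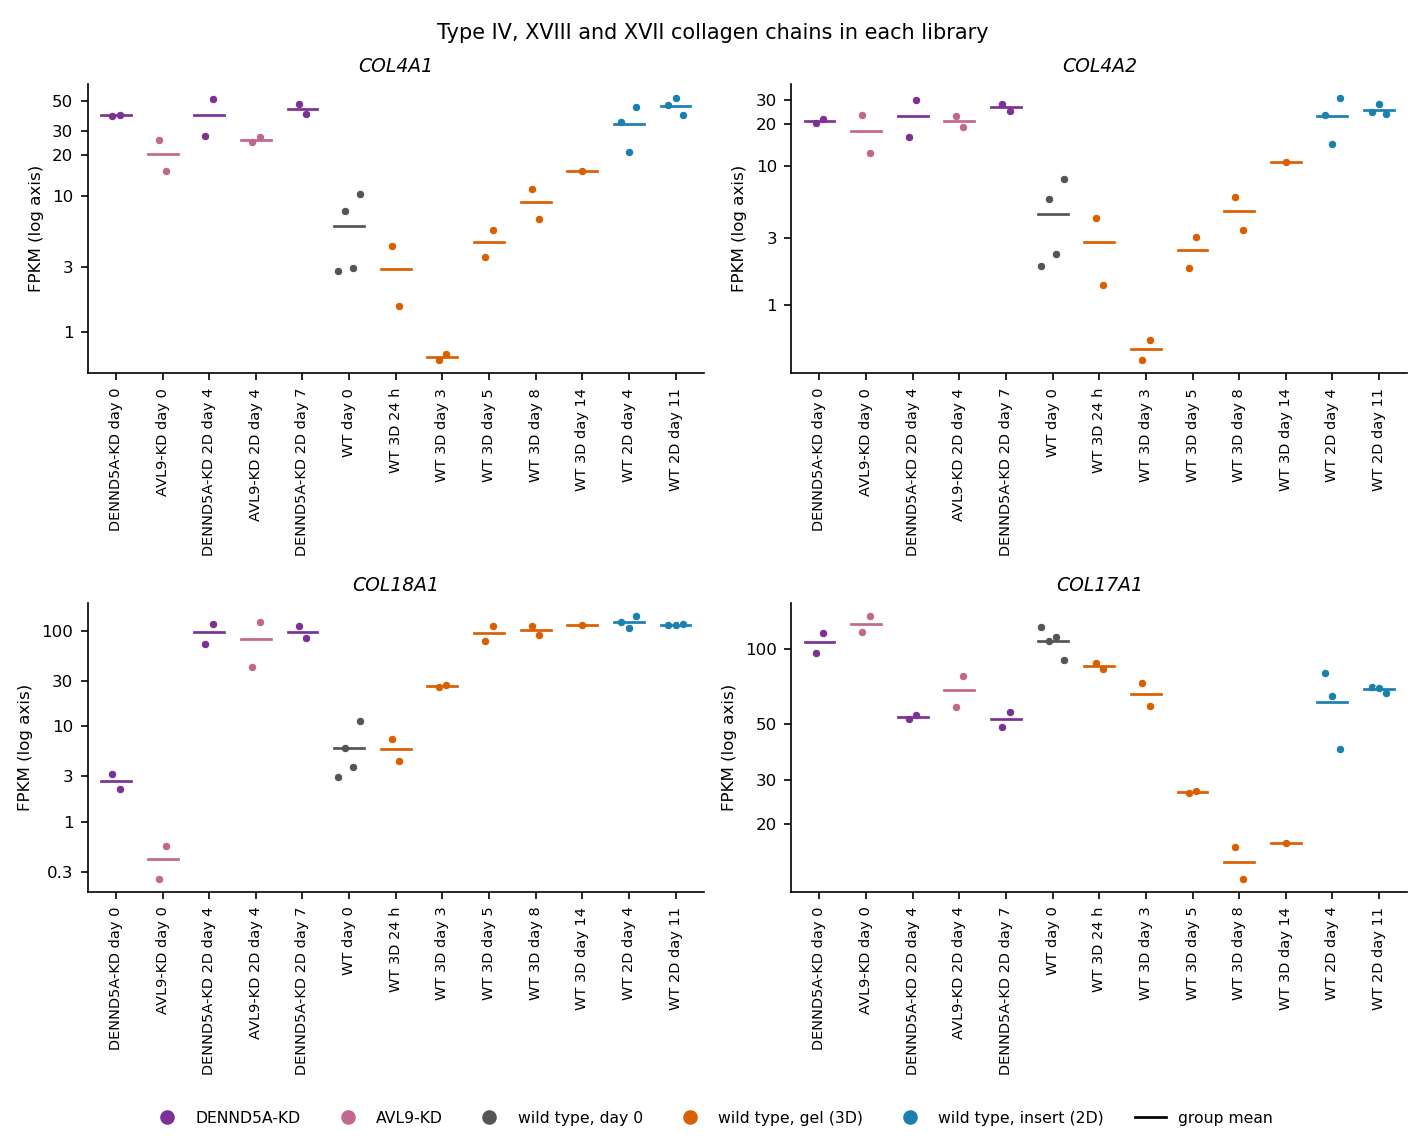
FPKM on a logarithmic axis of COL4A1, COL4A2, COL18A1 and COL17A1 in the 13 groups, with a point for each library and a bar for each group mean. COL4A1 and COL4A2 are lowest on gel at day 3 and above all gel libraries on inserts, COL18A1 climbs on gel from day 3 and is high on inserts at both times, and COL17A1 is lowest on gel from day 5.

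COL18A1 is the basement membrane collagen whose C-terminal fragment is endostatin. It had the widest span among the 15 members that reached 10 FPKM, 298 times between its highest and lowest group means. The lowest was AVL9-KD at day 0, at 0.413 FPKM, a level below 1 FPKM. Its wild-type means ran from 5.84 FPKM on gel at 24 h to 123 FPKM on inserts at day 4. That wild-type span was narrower, as a ratio, than that of COL4A1 (0.648 to 45.9 FPKM), whose lowest mean was also below 1 FPKM. COL18A1 was at 2.97, 5.96, 3.76 and 11.3 FPKM at day 0, and on gel at 7.37 and 4.32 FPKM at 24 h, 25.5 and 27.2 FPKM at day 3, 78.4 and 111 FPKM at day 5, 111 and 89.7 FPKM at day 8 and 113 FPKM at day 14. On inserts it was at 122, 107 and 141 FPKM at day 4 and 114, 115 and 117 FPKM at day 11. From day 3 on, all libraries on gel were above all day 0 libraries. Against day 0 it rose on gel by 2.11 ± 0.38 at day 3, 3.89 ± 0.38 at day 5 and 3.99 ± 0.38 at day 8 (limma adjusted p = 0.000124, 6.91e-08 and 3.02e-08), and on inserts by 4.20 ± 0.33 at day 11 (adjusted p = 8.56e-09). The log2 difference of 3D day 8 from 2D day 11 was -0.21 ± 0.40 (adjusted p = 0.704), beside -2.27 ± 0.42 for COL4A1 in the same comparison (adjusted p = 0.000243).

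COL17A1, a collagen that spans the plasma membrane and is a component of hemidesmosomes, took the opposite course on gel. It was at 123, 107, 111 and 90.6 FPKM at day 0, and on gel at 87.5 and 83.3 FPKM at 24 h, 72.8 and 59.3 FPKM at day 3, 26.4 and 26.9 FPKM at day 5, 16.1 and 12.0 FPKM at day 8 and 16.8 FPKM at day 14. Insert libraries held 80.0, 65.1 and 39.6 FPKM at day 4 and 70.7, 70.0 and 66.8 FPKM at day 11, below day 0 and above the gel libraries from day 5 on. Against day 0 COL17A1 fell on gel, with log2 differences of -0.70 ± 0.20 at day 3, -1.97 ± 0.20 at day 5 and -2.86 ± 0.20 at day 8 (limma adjusted p = 0.00571, 9.8e-08 and 6.68e-10), and on inserts, with -0.85 ± 0.17 at day 4 (adjusted p = 0.000277). At 3D day 8 it was 2.23 ± 0.21 below 2D day 11 (log2 difference -2.23, adjusted p = 1.56e-07), the smallest p of any member in that comparison.

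The laminin chains differed among themselves in their course on gel. LAMA3 and LAMB3 are chains of the laminin that is bound by hemidesmosomes. LAMA3 was at 18.9, 20.4, 17.9 and 18.8 FPKM at day 0, and on gel at 16.0 and 14.3 FPKM at 24 h, 9.55 and 8.22 FPKM at day 3, 7.04 and 6.55 FPKM at day 5, 5.27 and 3.21 FPKM at day 8 and 4.94 FPKM at day 14. It was lower in every gel library from day 3 on than in any day 0 library.

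Against day 0, LAMA3 fell by 1.96 ± 0.20 on gel at day 8 (limma adjusted p = 7.89e-08). LAMB3, its beta chain partner, was not called there. It was at 65.6, 59.1, 75.1 and 54.7 FPKM at day 0, 86.9 and 81.5 FPKM on gel at day 3 and 79.5 and 58.8 FPKM at day 8, with a log2 difference at day 8 of 0.11 ± 0.19 (adjusted p = 0.623). The ratio of LAMB3 to LAMA3 FPKM was 2.90 to 4.19 at day 0, 9.10 to 9.92 on gel at day 3, 11.2 to 14.1 at day 5 and 15.1 to 18.4 at day 8. On inserts LAMB3 rose, by 1.13 ± 0.17 at day 4 and 0.94 ± 0.17 at day 11 (adjusted p = 8.21e-06 and 8.6e-05), to between 116 and 154 FPKM, and the ratio reached 6.41 to 9.87. LAMA3 on inserts was at 13.3 to 14.0 FPKM at day 11, lower than at day 0 by 0.45 ± 0.18 (log2 difference -0.45, adjusted p = 0.0342).

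LAMA5, LAMB1, LAMB2 and LAMC1 are the chains of the laminins with the alpha 5 chain, the main laminins of mature kidney tubule basement membranes. LAMA5 was at 34.4 to 39.4 FPKM on gel at days 3 and 5 and at 34.6 and 26.3 FPKM at day 8, against 71.1 to 75.2 FPKM on inserts at day 4 and 53.2 to 67.4 FPKM at day 11. At day 0 it was at 42.4, 51.9, 50.3 and 51.6 FPKM, above the gel and below the insert libraries. Gel was lower than insert by 0.94 ± 0.08 (log2 difference -0.94, limma adjusted p = 1.98e-08). LAMB1, the beta chain with the higher level per length, held between 42.8 and 68.7 FPKM on gel from day 3 to day 8 and 81.8 to 95.6 FPKM on inserts. LAMB2, which in kidney is best known from the glomerular basement membrane, was much lower, at 5.77 to 6.77 FPKM at day 0, 7.89 to 9.80 FPKM on gel from day 3 to day 8 and 10.3 to 14.0 FPKM on inserts. LAMB2 rose against day 0 in both cultures, by 0.54 ± 0.13 on gel at day 8 and 1.00 ± 0.11 on inserts at day 11 (adjusted p = 0.00134 and 5.87e-07). LAMC1 fell by 0.67 ± 0.17 on gel at day 8 (adjusted p = 0.00179), but its difference was 0.03 between the replicates 1 and -1.18 among the other libraries, and the groups overlapped.

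**Figure D2:**
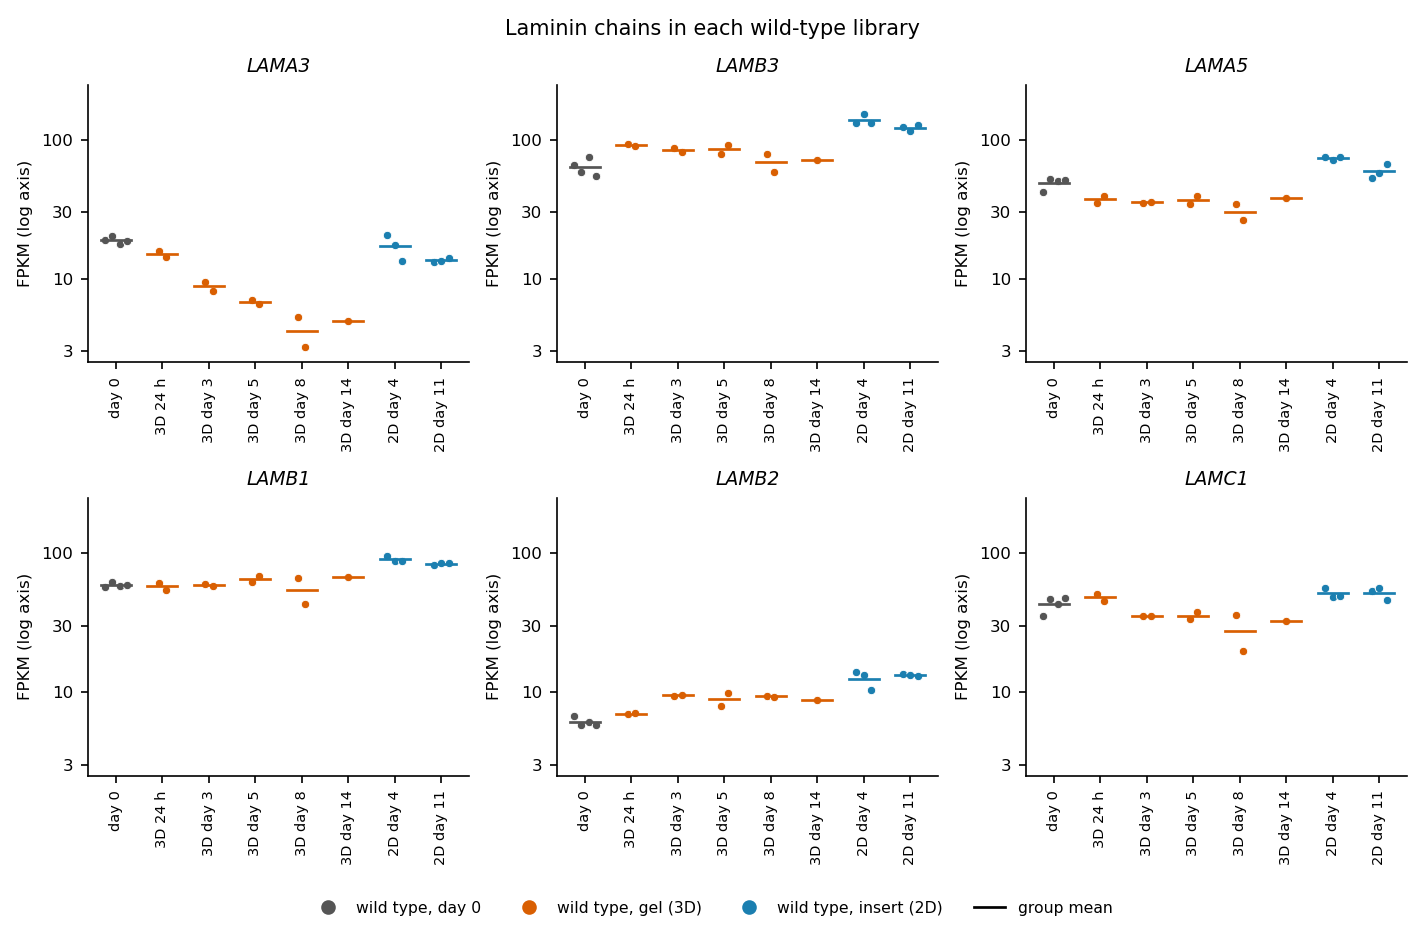
FPKM on a logarithmic axis of LAMA3, LAMB3, LAMA5, LAMB1, LAMB2 and LAMC1 in the wild-type groups, with a point for each library and a bar for each group mean. LAMA3 declines on gel, LAMB3 overlaps at day 8 with its day 0 level, and the insert libraries of LAMB3, LAMA5 and LAMB1 lie above the gel libraries of days 3, 5 and 8.

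The proteoglycans diverged on gel. AGRN, which binds dystroglycan, was at 70.0, 82.6, 75.0 and 91.9 FPKM at day 0, and on gel at 64.9 and 61.8 FPKM at 24 h, 89.1 and 80.0 FPKM at day 3, 100.5 and 117 FPKM at day 5, 147 and 84.1 FPKM at day 8 and 149 FPKM at day 14. On inserts it was at 294, 254 and 254 FPKM at day 4 and 232, 229 and 239 FPKM at day 11, above all other wild-type libraries. HSPG2, or perlecan, was at 70.8, 87.5, 78.0 and 83.9 FPKM at day 0, and on gel at 45.2 and 47.6 FPKM at 24 h, 43.9 and 33.1 FPKM at day 3, 30.7 and 33.5 FPKM at day 5, 33.1 and 18.3 FPKM at day 8 and 35.3 FPKM at day 14. Every gel library of HSPG2 was below every day 0 library, and the insert libraries, at 79.3 to 119 FPKM, were not.

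HSPG2 fell by 0.77 ± 0.16 within 24 h on gel (limma adjusted p = 0.0206), by 1.05 ± 0.16 at day 3 and by 1.66 ± 0.16 at day 8 (adjusted p = 2.43e-05 and 3.91e-08). It was the 1 member of the 21 that passed the test at 24 h, when 1.19% of all genes did (0.629% higher, 0.561% lower), and that call was lost without either 24 h library. AGRN rose on inserts by 1.73 ± 0.16 at day 4 (adjusted p = 2.7e-08), and on gel by 0.48 ± 0.19 at day 8 (adjusted p = 0.03). The day 8 difference was 1.06 between the replicates 1 and 0.02 among the other libraries. Between gel and insert, both were lower on gel, HSPG2 with a log2 difference of -1.59 ± 0.11 and AGRN with -1.301 ± 0.12 (limma adjusted p = 7.85e-10 and 6.4e-08).

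Type V collagen, a minor fibrillar collagen found beside type I in connective tissue, was the most abundant fibrillar type, with far more COL5A2 than COL5A1 per length. COL5A2 was at 94.3, 115, 95.9 and 131 FPKM at day 0, and on gel at 75.9 and 70.5 FPKM at 24 h, 34.6 and 39.0 FPKM at day 3, 40.6 and 51.7 FPKM at day 5, 51.0 and 52.1 FPKM at day 8 and 76.4 FPKM at day 14. All gel libraries were below all day 0 libraries, and inserts held 108 to 170.4 FPKM. COL5A2 fell by 1.53 ± 0.19 on gel at day 3 and 1.05 ± 0.19 at day 8 against day 0 (limma adjusted p = 2.05e-06 and 5.89e-05). COL5A1 was at 10.7, 24.8, 16.4 and 29.7 FPKM at day 0, a wide spread in which replicates 2 and 4 were high, as they were for COL4A1, COL4A2 and COL18A1. It was at 12.3 to 23.0 FPKM on gel from day 3 to day 8 and 27.5 to 31.9 FPKM on inserts, lower on gel than on inserts by 0.85 ± 0.16 (log2 difference -0.85, adjusted p = 0.00021).

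Of the collagens with low levels, COL28A1, COL11A2 and COL21A1 were each above day 0 on gel in every library from day 3 on. COL28A1, a collagen with von Willebrand factor A domains, was at 0.106 to 0.142 FPKM at day 0, 6.19 and 3.96 FPKM on gel at day 3, 1.69 and 2.42 FPKM at day 5, 2.53 and 1.51 FPKM at day 8 and 0.820 FPKM at day 14. On inserts it held 0.158 to 0.600 FPKM, below all gel libraries from day 3 on. COL28A1 passed the expression filter only through the 6 gel libraries of days 3, 5 and 8, so its gel values decided that it was tested. It rose by 2.42 ± 0.18 on gel at day 3 against day 0 (limma adjusted p = 9.24e-09) and had fallen by 1.01 at day 8 against day 3, a call lost without day 3 replicate 1 or day 8 replicate 2. COL11A2, a fibrillar chain best known from cartilage, was at 0.186 to 0.563 FPKM at day 0, 3.19 to 5.92 FPKM on gel from day 3 to day 8, 1.31 to 2.62 FPKM on inserts at day 4 and 0.669 to 1.23 FPKM at day 11. COL21A1, a collagen of the fibril-associated (FACIT) class, was at 0.299 to 0.743 FPKM at day 0 and reached 1.62 to 2.30 FPKM on gel and 1.75 to 2.41 FPKM on inserts. Its gel and insert levels overlapped, with a log2 difference of -0.09 ± 0.11 (adjusted p = 0.527). Neither COL11A2 nor COL21A1 reached 1 FPKM at day 0, so their higher values in other groups decided that they were tested.

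COL9A2, another FACIT chain, fell to 0.125 FPKM and a library listed at 0 on gel at day 8, against 1.22 to 1.76 FPKM at day 0, a log2 difference of -1.29 ± 0.14 (limma adjusted p = 1.51e-07). It was also lower than at day 0 on inserts, at 0.243 to 0.563 FPKM at day 4 and 0.757 to 0.940 FPKM at day 11. COL9A2 passed the expression filter only through day 0, 24 h and knockdown libraries, so its higher values there decided that it was tested. COL27A1, a fibrillar chain, reached 0.840 to 1.01 FPKM on gel at days 5 and 8, against 0.0361 to 0.116 FPKM at day 0. On inserts it was at 1.04, 0.522 and 0.763 FPKM at day 4, a called rise of 0.72 against day 0, and at 0.349, 0.247 and 0.434 FPKM at day 11. Only 3D day 8 replicate 1 and 2D day 4 replicate 1 reached 1 FPKM. COL12A1, a FACIT chain, did not exceed 0.196 FPKM in any wild-type library.

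**Figure D3:**
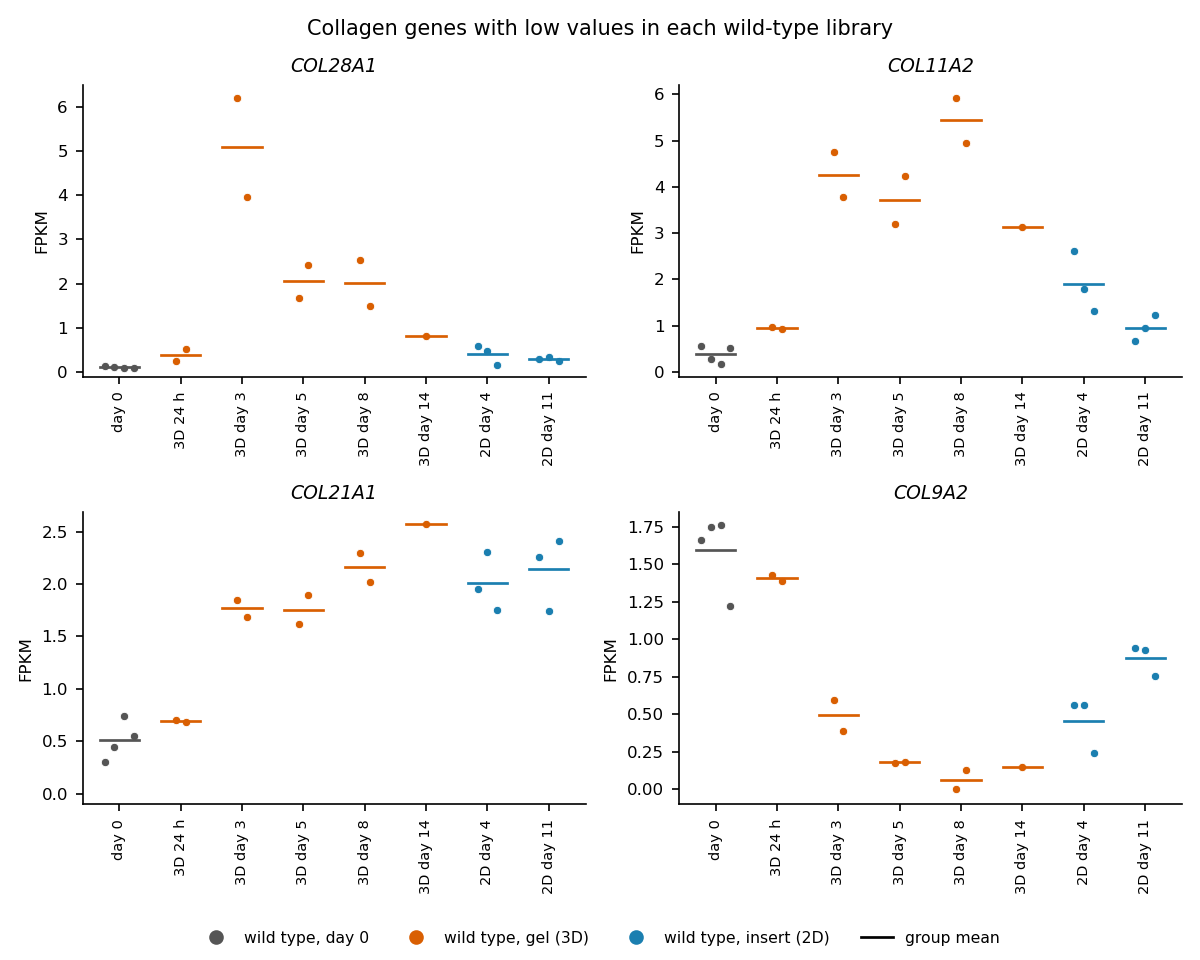
FPKM on a linear axis of COL28A1, COL11A2, COL21A1 and COL9A2 in the wild-type groups, with a point for each library and a bar for each group mean. COL28A1 peaks on gel at day 3, COL11A2 is highest on gel, COL21A1 overlaps between gel and inserts, and COL9A2 is lower than at day 0 in both.

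Counted over the 21 members tested, 14 were called against day 0 on gel at day 3 (5 higher, 9 lower), when 51% of all genes were called (28% higher, 23.1% lower). At day 5 the count was 14 (7 higher, 7 lower) beside 57.6% of all genes (26.4% higher, 31.2% lower), and at day 8 it was 15 (7 higher, 8 lower) beside 62.8% (24.7% higher, 38% lower). Of the genes called at day 8, 39.4% were higher, and 50.9% under median-ratio scaling. On inserts 15 were called at day 4 (13 higher, 2 lower) beside 59.9% (30.3% higher, 29.6% lower), and 16 at day 11 (13 higher, 3 lower) beside 55.9% (32.2% higher, 23.7% lower). Most genes tested were called in each of these comparisons, so these counts by themselves set the members little apart. In direction they were uneven on inserts, where 13 of the 15 called at day 4 were higher. On inserts at day 4 the median log2 difference of the members was 0.61 and that of all genes 0.00, and on gel at day 8 it was 0.07 and -0.13. The members lower on inserts at day 4 were COL17A1 and COL9A2, and LAMA3 joined them at day 11. COL5A1, called higher at day 11 (0.57 ± 0.22, limma adjusted p = 0.032), lost its call without day 0 replicate 1 or 3 or any 2D day 11 library, and its difference was 0.31 without day 0 replicate 1.

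Between 2D day 11 and 2D day 4 none of the 21 was called by limma, 2.08% of all genes were (1.9% higher, 0.178% lower), and 5 of the 21 had an unadjusted p under 0.05. Without the expression filter 1 was called. Of all genes called, 91.4% were higher at day 11, and 67.7% under quantile normalization. On gel, 9 were called at day 8 against day 3 (4 higher, 5 lower) beside 15.6% of all genes (1.47% higher, 14.1% lower), a split of 4 and 3 under quantile normalization and of 6 and 4 under median-ratio scaling. All genes called were higher in 9.41% of cases, and in 43% and 47.9% under these scalings. The risers were COL4A1, COL4A2, COL18A1 and COL27A1. COL17A1 fell most, by 2.16 ± 0.23 (limma adjusted p = 1.1e-05), with COL28A1, LAMA3, HSPG2 and COL9A2. Without day 3 replicate 1 the calls of COL4A2, COL18A1, COL27A1, COL28A1, LAMA3, HSPG2 and COL9A2 were lost. HSPG2 (-0.61) overlapped between the days and was not called under either scaling, and its difference was between -1.02 and -0.20 when a day 8 library was left out. In the single day 14 library 5 members were at least 2-fold above the day 0 mean on the log2(FPKM + 1) scale and 5 at least 2-fold below it, beside 12.6% and 11.7% of all genes. Against day 8, COL4A2 was the 1 member past 2-fold (1.06% of all genes higher, 0.849% lower).

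**Figure D4:**
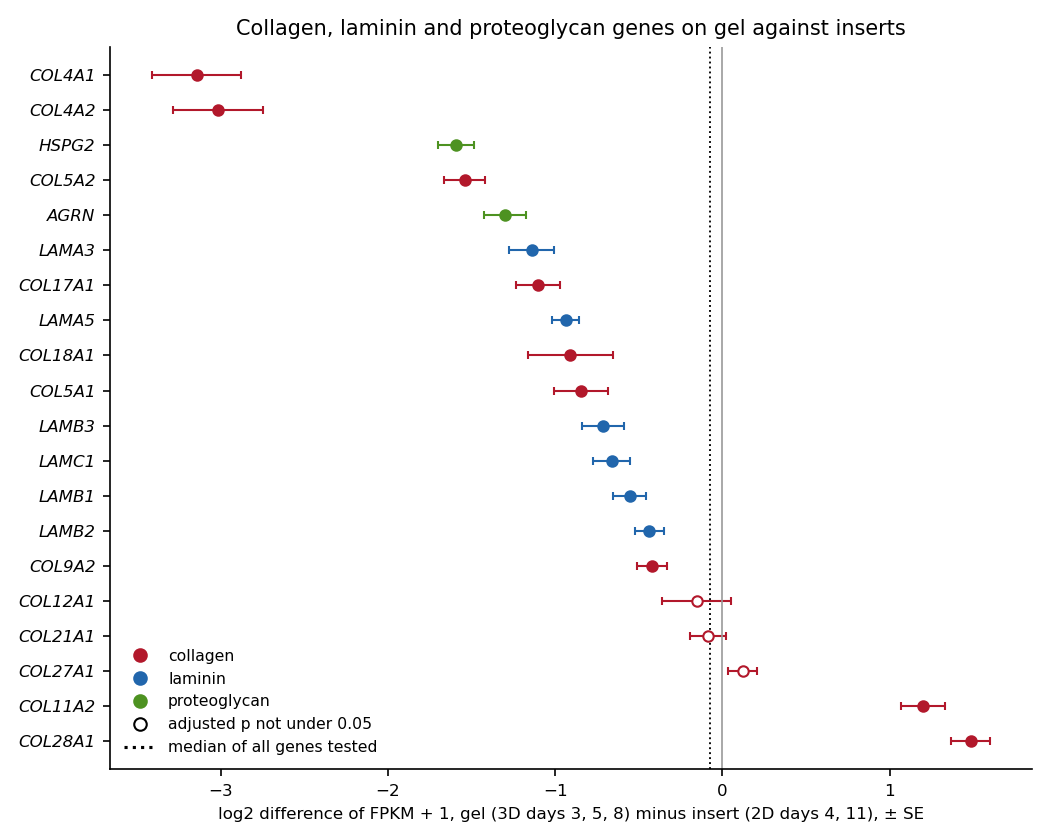
Difference of log2(FPKM + 1) between 3D days 3, 5 and 8 and 2D days 4 and 11 for 20 of the 21 members tested, with standard errors as bars, filled points for adjusted p under 0.05 and a dotted line at the median of all genes. COL28A1 and COL11A2 lie to the right of 0, and COL4A1 and COL4A2 lie farthest to the left.

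Set directly against each other, gel and insert differed across nearly the whole tested set. For 3D days 3, 5 and 8 against 2D days 4 and 11, 16 of 21 members were lower on gel and 2 were higher, against 34.8% lower and 22.1% higher among all genes (56.9% in either direction). The share of higher genes among all called was 38.9%, and 49.8% under quantile normalization and 50.1% under median-ratio scaling. The number called was 18 under both scalings and whichever library was left out. The median log2 difference was -0.85 over the members and -0.08 over all genes. All 7 laminin chains tested were lower on gel, from -1.14 ± 0.13 for LAMA3 to -0.44 ± 0.09 for LAMB2 (limma adjusted p = 7.82e-07 and 0.000252). COL28A1 (1.48 ± 0.12, adjusted p = 6.04e-09) and COL11A2 (1.20 ± 0.13, adjusted p = 3.78e-07) were higher on gel. COL28A1 had passed the expression filter only through gel libraries, so its gel values decided its inclusion. COL17A1, COL18A1 and COL9A2 were lower on gel with libraries that overlapped. COL9A2 was below 1 FPKM in every library of this comparison, at most 0.595 FPKM on gel and 0.940 FPKM on inserts. None of these libraries brought it past the expression filter.

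The narrower comparisons gave like counts. In 3D days 3 and 5 against 2D day 4, 17 members were called (2 higher, 15 lower) beside 43.9% of all genes (20.9% higher, 22.9% lower). In 3D day 8 against 2D day 11, 17 were called (3 higher, 14 lower) beside 46.1% (10.9% higher, 35.2% lower). Of all genes called in the later comparison 23.6% were higher, and 49.7% under quantile normalization. There COL27A1 (0.57 ± 0.13, adjusted p = 0.00191) was higher on gel beside COL28A1 and COL11A2, though its highest library of all was on an insert at day 4, at 1.04 FPKM. All of these values contain a shift of the whole distribution in some comparisons: the median difference of all genes was -0.13 for 3D day 8 against day 0, -0.20 for 3D day 8 against 2D day 11 and -0.19 for 3D day 8 against 3D day 3.

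DENND5A and AVL9 encode proteins with DENN domains, a domain of activators of RAB GTPases. At day 0 COL4A1 was at 38.5 and 39.4 FPKM in DENND5A-KD cells and 25.5 and 15.1 FPKM in AVL9-KD cells, against 2.80, 7.70, 2.96 and 10.3 FPKM in wild-type cells. COL4A2 was at 20.4 and 21.9 FPKM in DENND5A-KD and 23.4 and 12.5 FPKM in AVL9-KD, against 1.91 to 8.04 FPKM in wild-type cells. Neither knockdown overlapped with wild type, and the DENND5A-KD level at seeding lay within the range of the wild-type insert libraries. COL4A1 was higher by 2.69 ± 0.40 in DENND5A-KD and 1.74 ± 0.40 in AVL9-KD (limma adjusted p = 0.000216 and 0.00583), and COL4A2 by 2.17 ± 0.41 and 1.88 ± 0.41 (adjusted p = 0.00205 and 0.00366). Both knockdowns were compared with the same 4 wild-type libraries. Without AVL9-KD replicate 1 the AVL9-KD calls were lost (adjusted p = 0.116 for COL4A1 and 0.1001 for COL4A2), and without DENND5A-KD replicate 2 COL4A2 was lost in DENND5A-KD (adjusted p = 0.0505).

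The ratio of the type V chains lay above wild type in both knockdowns. At day 0 COL5A1 was at 2.89 and 3.49 FPKM in AVL9-KD cells and 20.1 and 19.1 FPKM in DENND5A-KD cells, against 10.7 to 29.7 FPKM in wild-type cells. COL5A2 was at 314 and 187 FPKM in AVL9-KD and 187 and 215 FPKM in DENND5A-KD, against 94.3 to 131 FPKM in wild-type cells. COL5A1 was below all wild-type libraries in AVL9-KD and overlapped with them in DENND5A-KD, while COL5A2 was above them in both lines. In AVL9-KD COL5A1 fell by 2.26 ± 0.25 and COL5A2 rose by 1.16 ± 0.19 (limma adjusted p = 4.1e-06 and 0.000266), and in DENND5A-KD COL5A2 rose by 0.88 ± 0.19 (adjusted p = 0.00513), a call lost without DENND5A-KD replicate 2. The ratio of COL5A2 to COL5A1 FPKM was 53.7 to 109 in AVL9-KD and 9.29 to 11.2 in DENND5A-KD, against 4.40 to 8.84 in wild-type cells. The difference between the knockdowns in COL5A1 was 2.30 ± 0.28 (DENND5A-KD minus AVL9-KD, adjusted p = 7.14e-05).

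COL18A1 had its lowest level in AVL9-KD cells at day 0, at 0.256 and 0.570 FPKM, against 2.97, 5.96, 3.76 and 11.3 FPKM in wild-type cells, a fall of 2.18 ± 0.38 (limma adjusted p = 0.000607). DENND5A-KD cells were at 3.21 and 2.22 FPKM, overlapping with wild type. On inserts at day 4 AVL9-KD reached 41.3 and 123 FPKM and DENND5A-KD 73.2 and 118 FPKM, against 107 to 141 FPKM in wild type, and neither knockdown was called. COL9A2 was higher in both knockdowns at day 0, at 2.78 and 3.80 FPKM in DENND5A-KD and 4.35 and 4.70 FPKM in AVL9-KD, against 1.22 to 1.76 FPKM in wild type. Its call in DENND5A-KD (0.72) was lost without DENND5A-KD replicate 2 (0.55, limma adjusted p = 0.1398), and that in AVL9-KD (1.10) held in every omission of a library. COL12A1 reached 1.06 and 1.98 FPKM in DENND5A-KD and 3.45 and 0.110 FPKM in AVL9-KD at day 0, against 0.0318 to 0.196 FPKM in wild type. COL12A1 passed the expression filter only through 3 of these knockdown libraries. Its call in AVL9-KD (1.00 ± 0.31, adjusted p = 0.0301) rested on replicate 1, without which the difference was -0.01 (adjusted p = 0.997), and in DENND5A-KD (1.15 ± 0.31, adjusted p = 0.0286) it was lost without either knockdown library. Both calls were also lost without wild-type replicate 2 or 3, and that in AVL9-KD without wild-type replicate 4.

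Among laminins, LAMA3 was at 43.5 and 23.3 FPKM in AVL9-KD at day 0, against 17.9 to 20.4 FPKM in wild type. Its difference was 0.72 ± 0.20 (limma adjusted p = 0.0181), and 0.28 without AVL9-KD replicate 1 (adjusted p = 0.465). None of the 7 laminin chains was called in DENND5A-KD at day 0. Over all 21 members, 5 were higher and 0 lower in DENND5A-KD at day 0 (5.52% of all genes called, 3.27% higher and 2.25% lower), and 7 were higher and 2 lower in AVL9-KD (18% called, 13.4% higher and 4.59% lower). Of all genes called in AVL9-KD at day 0, 74.5% were higher, and 48.5% under quantile normalization and 48.7% under median-ratio scaling.

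**Figure D5:**
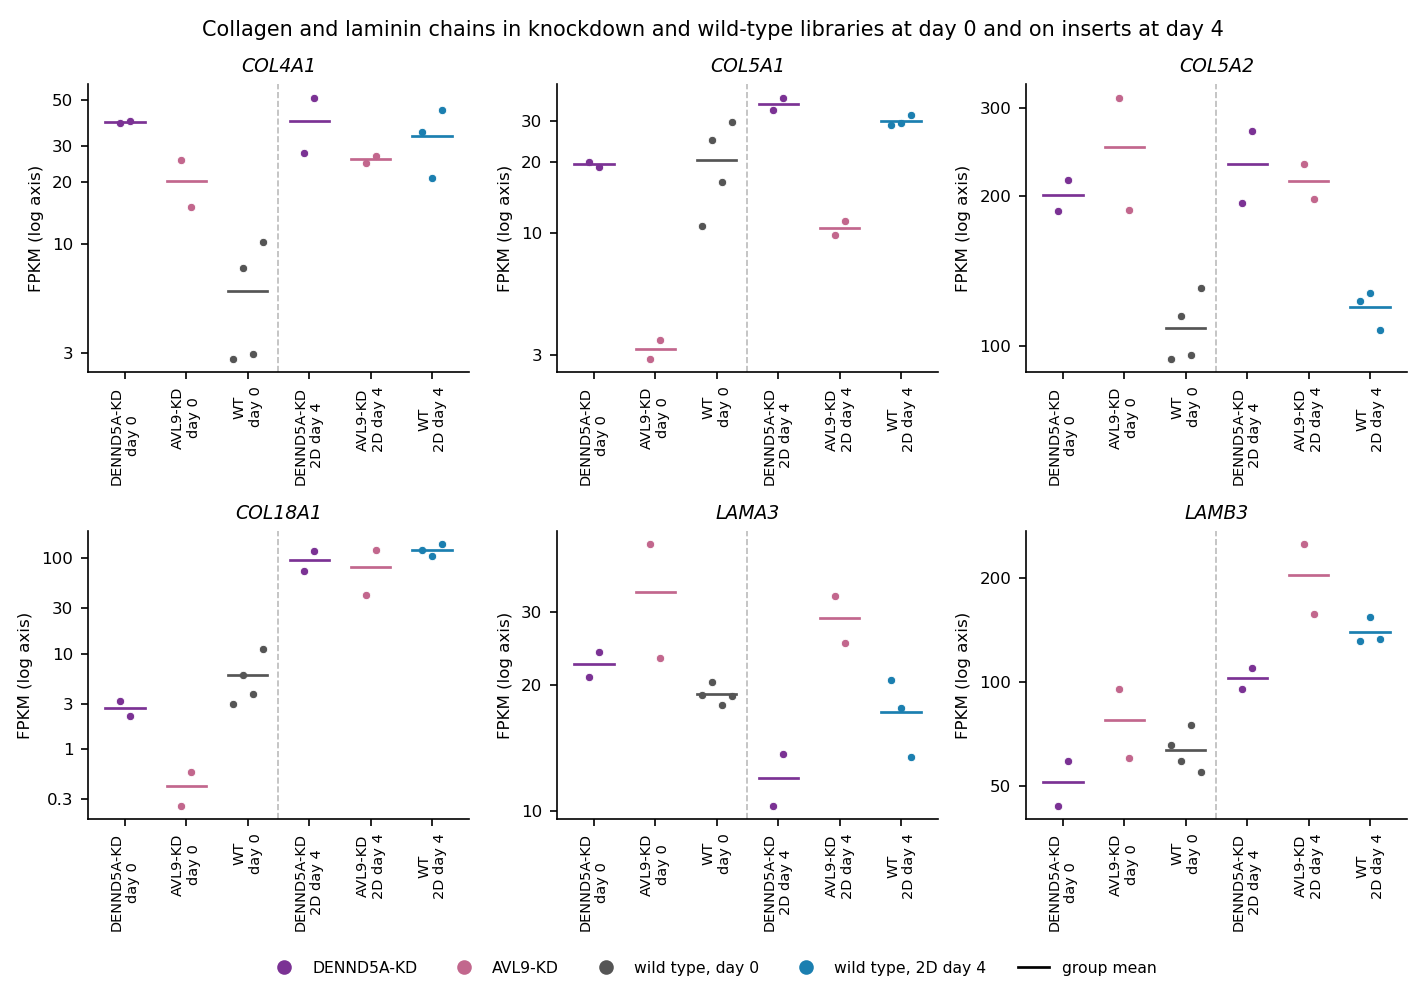
FPKM on a logarithmic axis of COL4A1, COL5A1, COL5A2, COL18A1, LAMA3 and LAMB3 in DENND5A-KD, AVL9-KD and wild-type cells at day 0 and on inserts at day 4, with a point for each library and a bar for each group mean. COL4A1 is above wild type in both knockdowns at day 0 and overlaps with it at day 4, and COL5A1 is below wild type in AVL9-KD at both times.

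On inserts at day 4 COL4A1 in the knockdowns overlapped with wild type. It was at 27.6 and 51.2 FPKM in DENND5A-KD and 24.7 and 26.8 FPKM in AVL9-KD, against 35.0, 20.9 and 44.5 FPKM in wild type. The DENND5A-KD difference at day 4 minus that at day 0 was -2.46 ± 0.58 for COL4A1 (limma adjusted p = 0.0338), the 1 member called there beside 1.83% of all genes (1.15% higher, 0.679% lower). At day 4 itself that line's difference was 0.23 ± 0.42 (adjusted p = 0.809). The change between the times ranged from -2.89 to -2.02 over 11 omissions of a library, in 7 of which the call was lost. For COL4A2 it was -2.16 ± 0.59 (adjusted p = 0.0655). For AVL9-KD none of the 21 was called (1.22% of all genes were, 0.985% higher and 0.238% lower, and 5 of the 21 had an unadjusted p under 0.05), with -2.04 ± 0.58 for COL4A1 (adjusted p = 0.105), and 1 was called with a pseudocount of 0.1.

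At 2D day 4, 4 members were called in DENND5A-KD (2 higher, 2 lower) beside 11.3% of all genes (5.54% higher, 5.79% lower), and 6 in AVL9-KD (4 higher, 2 lower) beside 21% (18.7% higher, 2.34% lower). COL5A2 was higher in both, at 193 and 269.8 FPKM in DENND5A-KD and 231 and 197 FPKM in AVL9-KD, against 108 to 128 FPKM in wild type. COL5A1 was again low in AVL9-KD, at 9.76 and 11.2 FPKM, beside 33.4 and 37.7 FPKM in DENND5A-KD and against 28.9 to 31.9 FPKM in wild type. Its AVL9-KD difference was -1.44 ± 0.26 (limma adjusted p = 0.000803), and the COL5A2 differences were 0.93 ± 0.20 in DENND5A-KD and 0.83 ± 0.20 in AVL9-KD (adjusted p = 0.00341 and 0.00551), that in DENND5A-KD lost without DENND5A-KD replicate 2. COL21A1 was called lower in both, by 0.62 in DENND5A-KD and 0.69 in AVL9-KD (log2 differences -0.62 and -0.69, adjusted p = 0.0228 and 0.00887). It was at 0.488 and 1.54 FPKM in DENND5A-KD and 0.872 and 0.850 FPKM in AVL9-KD, against 1.76 to 2.31 FPKM in wild type, and the DENND5A-KD difference was -0.24 without replicate 1 and -1.01 without replicate 2.

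COL11A2 was lower in DENND5A-KD at day 4, at 0.421 and 0.782 FPKM, against 1.31 to 2.62 FPKM in wild type, a difference of -0.85 ± 0.21 (limma adjusted p = 0.0108) that was lost without wild-type or DENND5A-KD replicate 1. In AVL9-KD it was at 2.35 and 4.10 FPKM. LAMA3 was higher in AVL9-KD, by 0.73 ± 0.21 (adjusted p = 0.0195), at 32.7 and 25.2 FPKM, against 13.5 to 20.5 FPKM in wild type. COL9A2, higher in AVL9-KD as at day 0, had the smallest adjusted p of any member there (limma adjusted p = 9.75e-05). It was at 2.26 and 1.61 FPKM in AVL9-KD and 1.12 and 0.922 FPKM in DENND5A-KD. Wild type was at 0.243 to 0.563 FPKM, below 1 FPKM. The median of all genes was 0.19 higher in AVL9-KD than in wild type at day 4 and 0.11 higher at day 0. Of all genes called in AVL9-KD at day 4, 88.9% were higher, and 53.1% under quantile normalization. With that normalization the 6 members called at day 4 split 3 and 3, and under median-ratio scaling 5 were called, 2 higher and 3 lower, without LAMA3 and COL5A2. Leaving out AVL9-KD replicate 1 ended the calls of COL5A2, LAMA3 and COL21A1, and leaving out wild-type replicate 3 that of LAMA3.

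DENND5A-KD and AVL9-KD differed from each other in 2 members at day 0 (4.12% of all genes, 1.49% higher and 2.62% lower), among them COL5A1, and in 6 at 2D day 4 (22.4%, with 19.1% lower in DENND5A-KD and 3.28% higher). At day 4 COL5A1 was higher in DENND5A-KD than in AVL9-KD by 1.67 ± 0.28 (limma adjusted p = 0.000708), and COL11A2 (-1.38 ± 0.23), LAMA3 (-1.21), LAMB3 (-0.95) and COL9A2 (-0.53) were lower. LAMB3 was at 95.5 and 109.8 FPKM in DENND5A-KD, against 250.2 and 158 FPKM in AVL9-KD, and its difference was -0.62 without AVL9-KD replicate 1. Without DENND5A-KD replicate 1 the calls of LAMA3, LAMB3 and COL9A2 were lost. The all-gene median of this comparison was -0.12 at day 0 and -0.24 at day 4, and the share of higher genes among those called was 36.3% and 14.6%, and 64.4% and 51.1% under quantile normalization. At 2D day 7 against 2D day 4 none of the 21 was called in DENND5A-KD cells by limma (0.051% of all genes, 0.017% higher and 0.034% lower), and none had an unadjusted p under 0.05.

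Genes that make, crosslink, bind or degrade this matrix were read from 5 further lists. Of 13 tested receptors, 11 were lower on gel than on inserts and 0 higher. SDC4 and SDC1, which are syndecans, were lower by 1.13 ± 0.12 and 0.86 ± 0.10, and the integrin alpha chains ITGA3, ITGA1 and ITGAV by 0.99 ± 0.12, 1.45 ± 0.22 and 0.58 ± 0.10 (log2 differences -1.13, -0.86, -0.99, -1.45 and -0.58, limma adjusted p at most 3.55e-05). Of 5 tested crosslinking enzymes, 3 were lower: the lysyl oxidases LOXL1, at a mean of 73.3 FPKM on gel and 181 FPKM on inserts, LOX and LOXL2. Of 19 collagen biosynthesis genes 1 was higher and 9 were lower, among them the prolyl hydroxylase genes P3H1 (-0.73 ± 0.08) and P4HA2 (-0.61 ± 0.09) and the lysyl hydroxylase gene PLOD3 (-0.57 ± 0.10).

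Of 11 other basement membrane and associated matrix genes, 2 were higher on gel and 7 lower. NPNT, the integrin ligand nephronectin, averaged 27.2 FPKM on gel and 104 FPKM on inserts (-1.93 ± 0.10, limma adjusted p = 5.78e-11), and NTN4, a netrin that binds laminin, averaged 7.76 FPKM on gel and 43.8 FPKM on inserts (-2.42 ± 0.18, adjusted p = 3.38e-09). TGFBI, which binds collagen and integrins, went the other way, at 17.9 FPKM on gel and 2.08 FPKM on inserts (2.61 ± 0.14, adjusted p = 8.6e-11). Among 19 turnover genes 1 was higher and 11 lower, with the protease inhibitor TIMP3 at 16.0 FPKM on gel and 78.6 FPKM on inserts (-2.21 ± 0.25, adjusted p = 5.69e-07) and HPSE, which cleaves heparan sulphate, higher (0.80 ± 0.13, adjusted p = 2.56e-05). Among all genes, 34.8% were lower and 22.1% higher in this comparison, the background for these counts.

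At day 0 in AVL9-KD 5 of 13 receptors were higher and 1 lower, beside 13.4% higher and 4.59% lower among all genes. Of all genes called there 74.5% were higher, and 48.5% under quantile normalization. Among the receptors, ITGAV, ITGA6 and ITGA2 were higher by 1.06 ± 0.14, 0.92 ± 0.17 and 0.63 ± 0.14 (limma adjusted p = 4.72e-05, 0.000952 and 0.00375). ITGAV, at a mean of 34.9 FPKM in DENND5A-KD and 17.8 FPKM in wild type, was the 1 receptor called in DENND5A-KD (0.94 ± 0.14, adjusted p = 0.000267). Turnover genes counted 6 higher and 2 lower in AVL9-KD and 4 higher and 1 lower in DENND5A-KD, where 3.27% of all genes were higher and 2.25% lower. MMP28, a matrix metalloproteinase, averaged 13.3 FPKM in DENND5A-KD and 14.8 FPKM in AVL9-KD, against 5.00 FPKM in wild type, and was higher by 1.27 ± 0.23 and 1.41 ± 0.23 (adjusted p = 0.00186 and 0.000392). PLAU, the urokinase gene, was higher by 0.78 ± 0.22 and 1.20 ± 0.22 (adjusted p = 0.0429 and 0.001). FBLN1, the matrix protein fibulin 1, was higher in both at day 0 (1.33 ± 0.23 in DENND5A-KD and 0.99 ± 0.23 in AVL9-KD) and at day 4 on inserts (2.01 ± 0.24 and 0.78 ± 0.24).

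On inserts at day 4, 7 of 13 receptors were higher in AVL9-KD and 0 lower, beside 4 higher and 1 lower in DENND5A-KD. Among all genes 18.7% were higher and 2.34% lower in AVL9-KD, and 5.54% and 5.79% in DENND5A-KD, and the share of higher genes among those called in AVL9-KD was 88.9%, and 53.1% under quantile normalization. The receptor lower in DENND5A-KD was BCAM, a receptor for the laminin alpha 5 chain, at a mean of 148 FPKM in DENND5A-KD and 356 FPKM in wild type (-1.35 ± 0.24, limma adjusted p = 0.000866). Of the 5 crosslinking enzymes, TGM2, a transglutaminase, averaged 7.53 FPKM in AVL9-KD and 0.347 FPKM in wild type (2.67 ± 0.26, adjusted p = 1.6e-06). Of 19 collagen biosynthesis genes 7 were higher in AVL9-KD and 0 lower, and 2 were higher and 1 lower in DENND5A-KD. P4HA3, a prolyl hydroxylase subunit, was higher in both (0.82 ± 0.16 in DENND5A-KD and 1.07 ± 0.16 in AVL9-KD, adjusted p = 0.00167 and 0.000116).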

How the data were processed

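RNA from MDCKII cells was sequenced in 29 stranded mRNA libraries, per the labels' protocols. The authors deposited 1 FPKM table per library, and the submitters' processing notes name HISAT2 2.1.0 and Cufflinks 2.2.1. The annotation release and whether counting used strand are not given in the sources used here, so overlapping and antisense genes may share reads. No library was identical to another. Values were taken as log2(FPKM + 1) and fitted with limma 3.58.1 in R 4.3.3, with a trend and 1 mean per group. Tests were 2-sided, with Benjamini-Hochberg adjustment over 11774 genes and a threshold of 0.05, and the fit was tested on simulated data. The members, lists and tests were chosen with earlier results of these data known. Members whose group mean reached 10 FPKM are given by library. Fold changes are given for at most the 10 called members with the largest change in a comparison and chains set beside them, and for at most the 5 genes of each other list with the smallest adjusted p. The alternatives were a pseudocount of 0.1, median-ratio scaling, quantile normalization, fitting without the expression filter, a replicate block, a batch term for the 5 libraries that stood apart, their omission, the compared groups alone and omission of each library. FPKM gives no counts, so no counting intervals are printed. RefSeq's dog table (another build) was used to see which members are neighbours, and 58 of the 59 were found in it by symbol. Of the 21 members tested, 1 enters the counts but is not reported here by itself.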

Additional observations from a re-analysis of the deposited data

Results flagged for a closer look

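LAMA5 in wild-type day 0 replicate 1 stood at 42.4 FPKM, below the other day 0 libraries at 50.3 to 51.9 FPKM. Its gap to them made up 0.834 of the range of the 4 libraries, just over Dixon's critical value. It was the 1 member beyond that limit of 21 examined, and chance alone gives about 1 in 20 groups. Replicate 1 is among the 5 libraries that stood apart, and its part in this value was not tested.

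The COL4A1 difference between DENND5A-KD and wild type changed between the times, by -2.46 at 2D day 4 relative to day 0. It is listed because the change itself passed limma's test (adjusted p = 0.0338). The call was lost in 7 of 11 omissions of a library.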

How the results depend on the processing

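Some counts of called members moved by more than 1.5 times. With the compared groups alone in the fit they were 0 for 3D 24 h (1 with all groups), 0 for 3D day 8 against 3D day 3 (9), 3 for DENND5A-KD day 0 (5), 2 for AVL9-KD day 0 (9), 0 for DENND5A-KD 2D day 4 (4), 1 for AVL9-KD 2D day 4 (6), 0 for the DENND5A-KD change between the times (1), and 0 for DENND5A-KD against AVL9-KD at day 0 (2) and at 2D day 4 (6). Without an expression filter they were 1 for 2D day 11 against day 4, 0 for the DENND5A-KD change between the times and 1 for DENND5A-KD against AVL9-KD at day 0, which quantile normalization also put at 1. A pseudocount of 0.1 gave 1 for the AVL9-KD change between the times. Without the 5 libraries that stood apart they were 5 for 3D day 8 against day 3 (1 library a group, assumed to vary like the others), 1 for DENND5A-KD 2D day 4 and 0 for the DENND5A-KD change between the times. A batch term for these libraries moved none of the 20 counts by that much. The cause of these changes was not tested.

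Leaving out 1 library at a time gave 0 to 1 calls for 3D 24 h, 10 to 15 for 2D day 11 against day 0, 2 to 8 for 3D day 8 against day 3, 0 to 1 for 2D day 11 against day 4, 1 to 5 for DENND5A-KD day 0, 4 to 9 for AVL9-KD day 0, 1 to 3 for DENND5A-KD 2D day 4, 3 to 9 for AVL9-KD 2D day 4, 0 to 2 and 0 to 1 for the DENND5A-KD and AVL9-KD changes between the times, 1 to 5 for DENND5A-KD against AVL9-KD at day 0 and 2 to 7 at 2D day 4. The lowest counts came without 2D day 11 replicate 3, 3D day 3 replicate 1, DENND5A-KD day 0 replicate 2, AVL9-KD replicate 1 (at either time), and wild-type or DENND5A-KD replicate 1 at 2D day 4. The count for gel against insert stayed at 18. Of single values, COL12A1 in AVL9-KD at day 0 lay between -0.0057 and 2.00 (1.00 with all libraries), the lowest without AVL9-KD replicate 1. With a replicate block (consensus correlation 0.201) 2 members were called for the DENND5A-KD change between the times, and no other count moved by over 1.5 times. Libraries of the same number were not treated as pairs: their deviations correlated by more than 0.1 in 19 of 41 wild-type and 2 of 8 knockdown pairs, over ranges of -0.16 to 0.56 and 0.01 to 0.36. Deviations in a group of 2 libraries mirror each other, so a value can be counted more than once, and those 2 knockdown pairs share the value 0.358. The highest wild-type value joined day 0 and 2D day 4 replicate 1, which stood apart. Pairing by number and that set were not separated.

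Among all genes, quantile normalization called 220 at 24 h (140 as fitted), 1224 for 3D day 8 against day 3 (1838), 2069 for DENND5A-KD at 2D day 4 (1334), 459 for its change between the times (215) and 127 for DENND5A-KD 2D day 7 against day 4 (6), and median-ratio scaling called 314 at 24 h and 1540 for DENND5A-KD against AVL9-KD at 2D day 4 (2640).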

Other observations

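Of the 27 members that were not tested and were above 0 in some library, 8 had their highest group mean at 3D day 14, a group of 1 library. None of these exceeded 0.1596 FPKM in any library. They include the interstitial chains COL1A1, COL1A2 and COL3A1, the microfibrillar chain COL6A1, the laminin chain LAMA4 and COL15A1, all at levels too low to test and without a replicate. A further 5 had their highest group mean in AVL9-KD cells at day 0, among them NID2. A group of 1 library is not averaged with lower replicates, and the like count among all genes was not made.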
